A study of Homo sapiens with 18 samples.

Results

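The satellites other than alpha were studied here, that is, the tandem repeats that the repeat tables list under the names HSAT4, HSAT5, HSATI, HSATII, GSAT, GSATII, GSATX, BSR/Beta, ACRO1, LSAU, TAR1, REP522, D20S16, SATR1, SATR2, SST1, CER, MSR1 and SAR. They were chosen by the first word of each listed name and not by any measured value, though earlier results of these data were known. The set holds 2352 annotated copies of 2404193 in the table of the 5-FU experiment (the 5-FU table) and 1835 of 1996647 in that of the Nutlin experiment (the Nutlin table), under the same 19 names in both, with 1749 copies listed in both tables. A count in at least 1 library was found for 827 and 543 of these copies.

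The RNA came from IMR90 cells, a long-established human fibroblast line from lung, labelled wildtype, and was made into stranded libraries of total RNA. The 18 samples formed 9 groups of 2. The drugs were Nutlin (5 µM, 6 h) and 5-fluorouracil (5-FU, 375 µM, for 6, 12 or 24 h), and each of these 4 drug groups had DMSO cells of its own time point. The untreated cells received no drug and no DMSO, and their medium was renewed 12 h before extraction. All groups share the cell line, so they are samples of 1 line. Nothing in the labels says that the 2 samples of a group were separate cultures, so p-values measure the spread between these samples alone, which may be technical.

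Satellites are arrays of tandemly repeated units that lie mostly at and beside centromeres and near chromosome ends, where chromatin is usually compact and little RNA is made. Beta satellite is built from short units and lies on the acrocentric chromosomes, in other pericentromeric regions and, on chromosome 19, among clusters of zinc finger genes. Gamma satellites (GSAT, GSATII, GSATX) are GC-rich pericentromeric repeats, HSATII is a pericentromeric satellite known for its expression in tumours and in stressed cells, and SST1 is a large-unit repeat known for its loss of DNA methylation in cancers. Nutlin keeps MDM2 from binding p53 and so stabilises p53, while 5-FU, an antimetabolite, interferes with the making of RNA and DNA and also activates p53. The series asks how RNA from repeats goes with p53. No gene is listed in the tables, so fibroblast markers and p53 target genes were not analysed here.

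Total counts were 2412334 to 6290320 per library in the 5-FU table, with both DMSO 12 h libraries the shallowest, and 9109885 to 11880265 in the Nutlin table. Structural RNA (rRNA, tRNA and other small RNA) took 30.0% to 45.2% of the counts in the first table and 74.4% to 80.6% in the second, so levels in CPM, which are counts scaled to a common library total, are lower in the Nutlin table and were not set against those of the 5-FU table. Untreated replicate 1, counted for both tables, had 3481300 counts in the first and 9669973 in the second, with 30.0% and 74.4% structural. Outside structural RNA it had 2435957 and 2474410 counts, so its 2 totals differ almost wholly in structural counts. The satellites held 1412 to 3971 counts per library of the 5-FU table and 1497 to 2423 of the Nutlin table. Relative to the counts outside structural RNA this was 786 to 983 and 770 to 979 CPM. The 2 untreated columns of the Nutlin table hold the same values and were used as 1 sample.

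Most satellite counts lay in a few names and on few chromosomes. BSR/Beta held 36.8% (5-FU table) and 42.0% (Nutlin table) of the satellite counts, and chromosome 19 held 57.8% and 60.7%. Summed over the 14 libraries of the 5-FU table, MSR1 had 45.1 counts per kb of annotated sequence, LSAU 37.1, BSR/Beta 30.9, HSAT4 27.3, GSATII 23.3 and SST1 20.6, while HSATII had 1.20 and GSAT 0.139. For comparison, alpha satellite (ALR/Alpha), the repeat of the centromere itself, had 3.61. The filter on low counts left 14 names and 102 copies for testing in the 5-FU table and 13 names and 49 copies in the Nutlin table. The copies tested held 79.4% and 66.8% of the satellite counts. ACRO1, GSAT, GSATX, HSATI and SAR were not tested in either table, nor D20S16 in the Nutlin table.

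Names were tested as sums over their copies, drug against its own DMSO group, with edgeR's quasi-likelihood test, and a change was called at a Benjamini-Hochberg adjusted p under 0.05 over all repeat names or copies. After Nutlin, HSAT4 and SATR2 rose and BSR/Beta fell, which is 3 of 13 names against 12.6% of all repeat names (9.43% higher and 3.18% lower). After 12 h of 5-FU, BSR/Beta, MSR1 and SST1 rose and CER and HSAT4 fell, which is 5 of 14 names against 33.8% (28.5% higher and 5.29% lower). After 24 h LSAU alone of 14 names was called, against 12.1% of all names (10.9% higher and 1.21% lower). After 6 h of 5-FU no name of 14 was called, against 0% of all names, with 1 satellite name at an unadjusted p under 0.05 and no satellite name called by DESeq2. The median log2 fold change of the names tested was 0.41 after Nutlin and 0.08, -0.02 and 0.42 after 6, 12 and 24 h of 5-FU, against 0.07, 0.05, 0.17 and 0.13 over all names. Other scalings moved the split of the 12 h names to 1 higher and 2 lower (RLE factors, or TMM factors from the filtered copies), 0 and 2 (library size alone) or 4 and 1 (without structural RNA), and that of the Nutlin names to 1 and 1 (library size alone). With library size alone the median over all names at 12 h moved to -0.40. Leaving out 1 library at a time left 1 to 4 names called after Nutlin (1 without Nutlin replicate 1), 0 to 3 after 12 h of 5-FU (0 without 5-FU replicate 2) and 0 to 3 after 24 h (0 without either DMSO replicate).

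**Figure D1:**
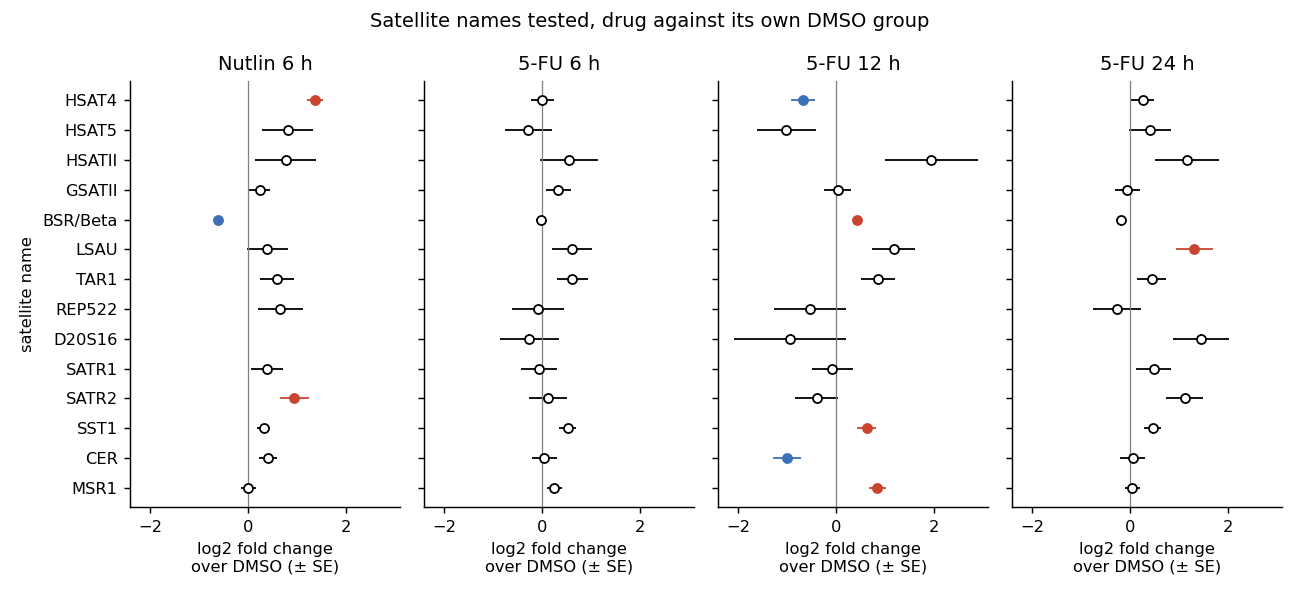
Log2 fold change (x axis, with its standard error as bars) of each satellite name tested (y axis), drug against its own DMSO group, with filled points for adjusted p under 0.05 (red higher, blue lower). HSAT4 lies at 1.36 after Nutlin and at -0.68 after 12 h of 5-FU, and BSR/Beta at -0.61 and 0.43.

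Among single copies, 4 rose and 5 fell after Nutlin, of 49 tested, against 7.66% of all repeat copies called (4.49% higher and 3.17% lower). After 12 h of 5-FU 7 rose and 6 fell, of 102, against 9.71% (5.44% higher and 4.27% lower), and after 24 h 4 rose and 11 fell, against 4.23% (2.42% higher and 1.82% lower). After 6 h of 5-FU edgeR called no copy of 102, against 0.101% (0.0896% higher and 0.011% lower), with 14 at an unadjusted p under 0.05 and 1 called by DESeq2. In each of these called copies the 2 drug libraries did not overlap the 2 DMSO libraries. A call selects for such separation, so this adds no support to the calls. The median log2 fold change of the copies tested was -0.20, -0.11, -0.52 and -0.01 after Nutlin and 6, 12 and 24 h of 5-FU, against 0.00, 0.00, -0.04 and 0.00 over all copies. The split into higher and lower calls moved with the scaling: at 12 h it was 4 higher and 14 lower with library size alone, 9 and 4 with factors from all copies, and 6 and 8 without structural RNA. For Nutlin it was 4 higher and 3 lower with factors from all copies, and 2 higher and 0 lower with DESeq2. Leaving out 1 library at a time left 6 to 12 copies called after Nutlin, 2 to 9 after 12 h (2 without DMSO 12 h replicate 1) and 7 to 13 after 24 h (7 without DMSO 24 h replicate 2).

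Beta satellite counts came almost wholly from chromosome 19, with 92.9% of the BSR/Beta counts of the 5-FU table and 93.8% of the Nutlin table there. Copies that lay within 20000 bases of each other formed 5 clusters with at least 3 tested copies, called A to E here in their order along the chromosome, a grouping chosen after the data were seen. Cluster A is at chr19:22022155-22034031, B at chr19:23277827-23286027, C at chr19:23438563-23447435, D at chr19:23488973-23499839 and E at chr19:24232249-24258122 (hg19). D begins 41.5 kb after the end of C. The clusters held 9.21%, 21.1%, 13.5%, 10.9% and 35.0% of the BSR/Beta counts of the 5-FU table. The largest single copy, chr19:23441421-23443231 in cluster C, held 6.67% of them.

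In cluster D 3 of 4 tested copies rose after 12 h and after 24 h of 5-FU, and the 1 copy tested in the Nutlin table rose after Nutlin. These were the BSR/Beta copies of chromosome 19 that were called higher. In the 5-FU table its summed level was 5.76 and 7.17 CPM in untreated cells and 6.87 and 12.3, 2.97 and 6.50, and 4.31 and 6.71 CPM in DMSO cells at 6, 12 and 24 h. With 5-FU it was 26.6 and 23.4, 69.7 and 64.8, and 42.2 and 35.2 CPM. All 6 drug libraries lay above all 8 others, and the level was highest at 12 h. In the Nutlin table the cluster stood at 2.49 and 2.20 CPM in DMSO cells, 2.06 in untreated cells and 7.44 and 6.63 CPM after Nutlin.

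The copy that carries most of cluster D is chr19:23489887-23491514. It had 17 and 27, 0 and 2, and 7 and 24 counts in DMSO cells at 6, 12 and 24 h, 11 and 7 in untreated cells, and 69 and 81, 143 and 131, and 111 and 104 with 5-FU. At 24 h its log2 fold change was 2.90 (SE 0.42, adjusted p = 0.000168). At 12 h the DMSO libraries held 2 counts in all, and the ratio of the library-scaled counts was 106, with a 95% counting interval of 29.2 to 882 (adjusted p = 1.15e-06). After Nutlin it had 60 and 32 counts against 12 and 12 (log2 fold change 1.87 with an SE of 0.38, adjusted p = 0.00825), and this call was lost without Nutlin replicate 1 (1.60, adjusted p = 0.0546).

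Its neighbours in the cluster went the same way. The copy chr19:23488973-23489582 had 56 and 50 counts against 2 and 5 at 12 h (log2 fold change 3.52 with an SE of 0.68, adjusted p = 0.00229) and 34 and 41 against 9 and 0 at 24 h (3.07, SE 0.66, adjusted p = 0.00789). The copy chr19:23491588-23493348 had 29 and 29 counts against 1 and 2 at 12 h, a ratio of 15.003 with a counting interval of 4.89 to 74.9 (adjusted p = 0.00367), and 25 and 28 against 4 and 6 at 24 h (log2 fold change 2.45, adjusted p = 0.0304). Both 12 h calls were lost without DMSO 12 h replicate 1 (adjusted p = 0.0575 and 0.0646). At 24 h the first was lost without DMSO replicate 2 (2.02, adjusted p = 0.105) and the second without either DMSO replicate or 5-FU replicate 1 (adjusted p = 0.105 to 0.234). At 6 h the 4 tested copies of the cluster had log2 fold changes of 1.08 to 1.77 and none was called. Other repeats tested within 20000 bases of cluster D were few: 1 of 3 was higher at 12 h and 1 of 3 at 24 h, with medians of 1.56 and 2.24.

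**Figure D2:**
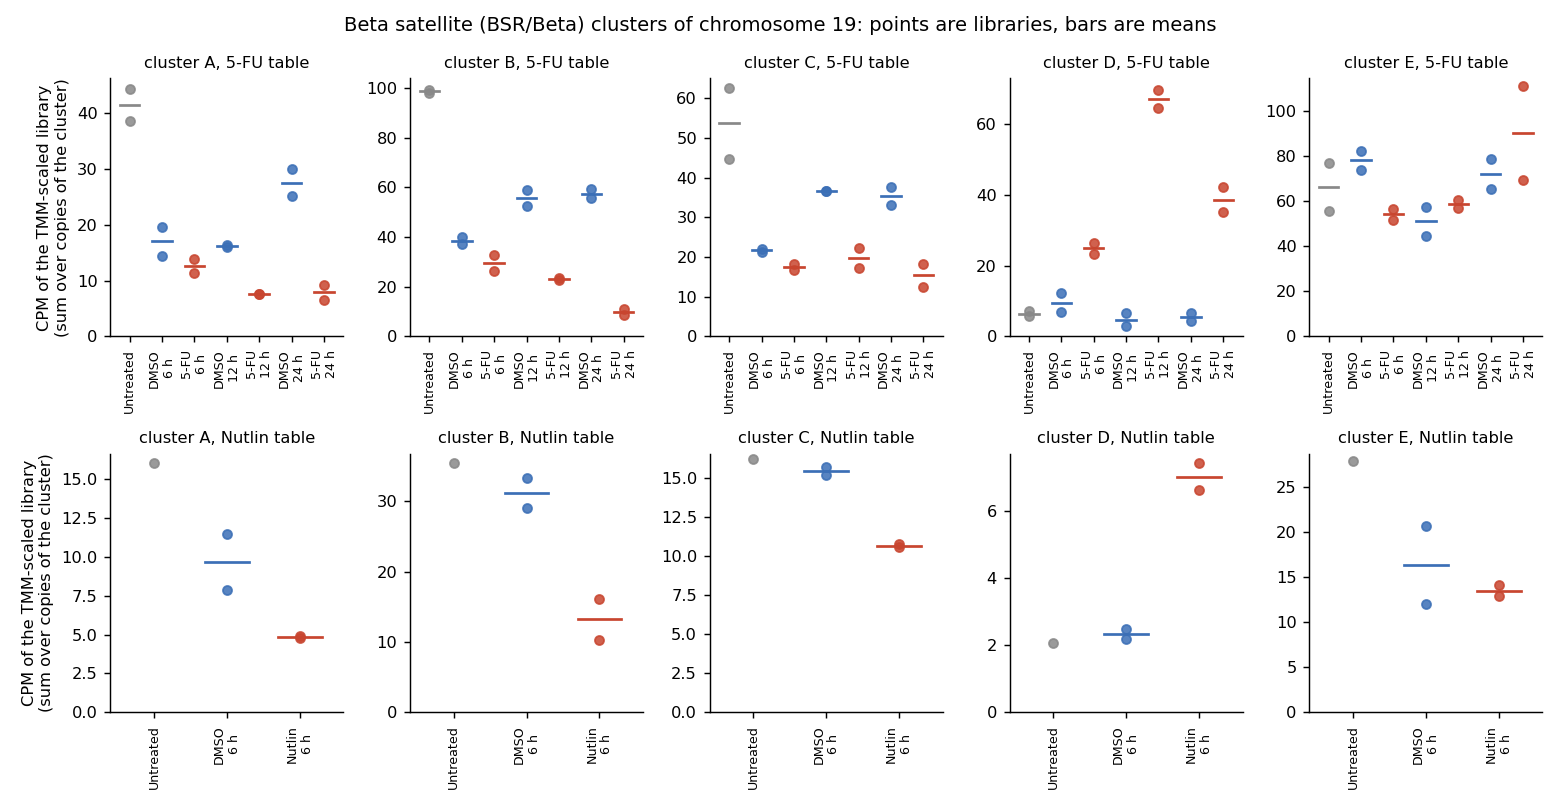
Summed level of each beta satellite cluster of chromosome 19 (y axis, CPM of the TMM-scaled library) by group (x axis), with points for libraries and bars for means, and 1 row of panels for each table. Cluster D is higher in every drug library than in any control library of its table, while clusters A and B have their lowest libraries under the drugs.

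Copies of clusters A, B and C fell. Cluster B, the one with most calls, stood at 99.3 and 98.0 CPM in untreated cells, at 37.1 and 39.8, 58.9 and 52.4, and 59.4 and 55.7 CPM in DMSO cells, and at 32.8 and 26.4, 22.6 and 23.5, and 10.9 and 8.67 CPM after 6, 12 and 24 h of 5-FU. The 5-FU libraries lay below their own DMSO libraries at all 3 times, and the lowest were those of 24 h. In the Nutlin table B stood at 29.1 and 33.3 CPM in DMSO cells and at 10.3 and 16.1 CPM after Nutlin.

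At 24 h of 5-FU 7 of the 8 tested copies of cluster B were called lower, with a median log2 fold change of -2.39 over the 8. The copy chr19:23284077-23284428 had 75 and 72 counts in DMSO cells and 6 and 9 after 5-FU (log2 fold change -3.22 with an SE of 0.43, adjusted p = 7.63e-05). The copy chr19:23282617-23283445 had 10 and 11 counts after 5-FU against 60 and 59 (-2.42, SE 0.35, adjusted p = 0.000178). The other 5 had log2 fold changes of -2.69 to -2.15, among them chr19:23283755-23284047 with 5 and 4 counts against 29 and 34 and chr19:23285598-23286027 with 4 and 8 against 47 and 30. The latter was called no longer without DMSO replicate 1. Over 12 alternatives the calls of chr19:23278540-23280195 and chr19:23277827-23278527 were kept in 6 and 8. Those of chr19:23284077-23284428, chr19:23282617-23283445, chr19:23283755-23284047 and chr19:23284670-23285287 were kept in all 12. Other repeats tested within 20000 bases moved with these copies, 4 of 11 being lower, with a median of -3.21.

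After Nutlin 5 of the 7 tested copies of cluster B were lower, which are all the satellite copies called lower there, with a median log2 fold change of -1.32 over the 7. The copy chr19:23282617-23283445 had 30 and 28 counts after Nutlin against 52 and 64 in DMSO cells (log2 fold change -1.02, adjusted p = 0.0325), and chr19:23278540-23280195 had 8 and 2 after Nutlin against 22 and 26 in DMSO cells (-2.30, adjusted p = 0.018). The other 3 were chr19:23277827-23278527 (9 and 9 counts against 25 and 31), chr19:23284670-23285287 (16 and 21 against 43 and 49) and chr19:23285598-23286027 (13 and 17 against 33 and 43), with log2 fold changes of -1.65, -1.32 and -1.35. With DESeq2 none of the 5 was called (adjusted p = 0.0766 to 0.218), and without Nutlin replicate 1 the call of 4 of the 5 was lost (adjusted p = 0.138 to 0.239). At 12 h of 5-FU 1 of 8 was called, chr19:23285598-23286027, with 9 and 6 counts against 34 and 25 (-2.32, SE 0.49, adjusted p = 0.00436), a call lost without 5-FU replicate 2 (0.0643) or DMSO replicate 1 (0.0572).

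Cluster A stood at 15.9 and 16.4 CPM in DMSO cells and 7.64 and 7.55 after 5-FU at 12 h, and at 25.1 and 29.9 against 6.49 and 9.29 CPM at 24 h. Of its 6 tested copies 3 were lower at 24 h and 1 at 12 h, chr19:22023202-22024683, with 13 and 9 counts in DMSO cells against 5 and 2 (log2 fold change -1.99, adjusted p = 0.0393), a call lost without any 1 of the 4 libraries (adjusted p = 0.0601 to 0.234). The copy chr19:22022155-22023149 had 22 and 31 counts against 3 and 1 at 24 h (log2 fold change -3.54, adjusted p = 0.00215). This call was kept in all 12 alternatives, and the 24 h calls of chr19:22023202-22024683 and chr19:22025240-22026144 in 8 and 5 of 12. Cluster C stood at 37.6 and 33.2 CPM against 18.3 and 12.5 at 24 h, and 1 of its 6 copies was lower, chr19:23441421-23443231, with 90 and 87 counts against 40 and 42 (log2 fold change -1.03, adjusted p = 0.0411). That call was kept in 5 of 12 alternatives and lost without 5-FU replicate 2 (-0.78, adjusted p = 0.186), DMSO replicate 1 (0.236) or DMSO replicate 2 (0.12). In both clusters the 2 groups did not overlap at 24 h.

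Together A, B and C held all 11 copies called lower at 24 h. Of their tested copies 16 of 16 had a log2 fold change below 0 after Nutlin, 14 of 20 after 6 h of 5-FU, 19 of 20 after 12 h and 20 of 20 after 24 h. Copies of 1 cluster lie side by side and share their libraries, so they are not independent of each other. A, B and C were put together after their called copies were seen to be lower, so these counts of signs add no support to the calls. Cluster E, the longest, had no called copy among its 16 at any time of 5-FU or among those tested after Nutlin. It stood at 65.5 and 78.8 CPM in DMSO cells and at 69.5 and 111 CPM after 24 h of 5-FU, so its groups overlapped. At 12 h they overlapped too, at 57.5 and 44.7 against 57.0 and 60.4 CPM. At 6 h they did not, at 82.2 and 74.0 CPM in DMSO cells against 56.8 and 51.5 CPM with 5-FU. Of the 16 copies 2 had a log2 fold change above 0 at 6 h (median -0.64), and 11 at 12 h and at 24 h.

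**Figure D3:**
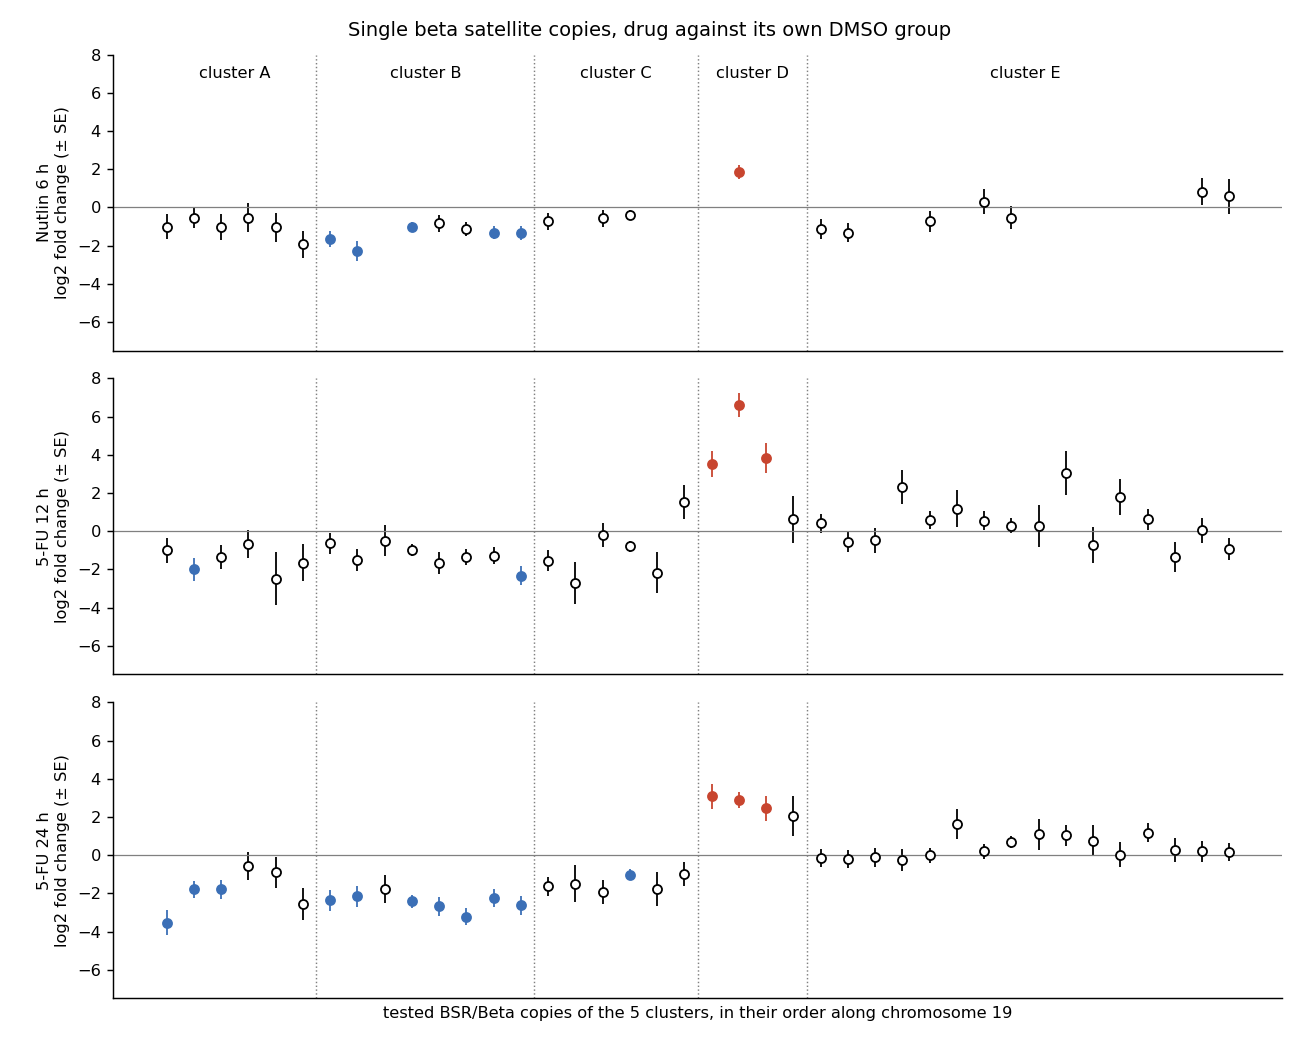
Log2 fold change (y axis, with its standard error as bars) of each tested beta satellite copy of the 5 clusters, in their order along chromosome 19 (x axis), with filled points for adjusted p under 0.05 (red higher, blue lower). The called copies of cluster D are higher and those of clusters A, B and C lower, and cluster E has none.

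The sum over all BSR/Beta copies mixes these directions. It stood at 88.5 and 81.3 CPM in DMSO cells and 56.9 and 54.0 CPM after Nutlin (log2 fold change -0.61 with an SE of 0.11, adjusted p = 1.02e-05). At 12 h of 5-FU it stood at 162 and 143 CPM in DMSO cells and 204 and 207 after the drug (log2 fold change 0.43 with an SE of 0.10, adjusted p = 0.00456). With library size alone in place of TMM the log2 fold change was -0.14 (adjusted p = 0.493). The call was also lost with DESeq2 (0.14, adjusted p = 0.474), RLE factors (0.14, 0.341) and TMM factors from the filtered copies (0.19, 0.189). Without cluster D the 12 h values were 159 and 138 CPM against 134 and 143 CPM, and the groups overlapped. The copy chr19:23489887-23491514 alone held 143 and 131 of the name's 691 and 722 counts with 5-FU and 0 and 2 of 515 and 448 in DMSO cells. At 24 h the name was not called (log2 fold change -0.19, adjusted p = 0.243). The 12 h call was lost without 5-FU replicate 1 (adjusted p = 0.206), 5-FU replicate 2 (0.243) or DMSO replicate 2 (0.0617), and the Nutlin call was lost without Nutlin replicate 1 (log2 fold change -0.65, adjusted p = 0.052).

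A beta satellite copy outside chromosome 19 also rose at 12 h of 5-FU. It lies at chr7:63835973-63840397 and had 26 and 31 counts after the drug against 0 and 4 in DMSO cells (log2 fold change 3.41 with an SE of 0.81, adjusted p = 0.0104). The call was lost without DMSO 12 h replicate 1 (2.43, adjusted p = 0.126), without 5-FU replicate 2 (3.29, adjusted p = 0.0555) and with the compared libraries alone (adjusted p = 0.0566). At 6 h it had 19 and 25 against 5 and 7, and at 24 h 18 and 22 against 4 and 11, neither called. Its 6 drug libraries lay above its 8 control libraries, as in cluster D.

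The 24 h effect of 5-FU was set against its 6 h effect as an interaction. Of 102 copies 2 differed, against 0.385% of all copies (0.0865% higher and 0.299% lower), and no name of 14 did with edgeR or DESeq2, with 0 names at an unadjusted p under 0.05 and 1.11% of all names called (0.835% higher and 0.278% lower). Both copies are in cluster B: chr19:23284077-23284428 with a difference of -2.68 (SE 0.57, adjusted p = 0.0362) and chr19:23282617-23283445 with -2.61 (SE 0.47, adjusted p = 0.0106). The second had 28 and 33 counts in DMSO cells and 37 and 32 with 5-FU at 6 h. The first call was lost without 5-FU 6 h replicate 1, with a difference of -1.95 (adjusted p = 0.315).

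Beta satellite also differed between vehicle and untreated cells. The mean of the 3 DMSO groups was compared with the untreated cells in the 5-FU table, where BSR/Beta stood at 313 and 298 CPM in untreated cells and at 143 to 218 CPM in the 6 DMSO libraries (log2 fold change -0.75 with an SE of 0.08, adjusted p = 0.000207). It was the only name of 14 called, against 11.8% of all names, of which most were lower (10.1% against 1.67% higher). Of 102 copies 4 were called, against 1.66% (0.643% higher and 1.02% lower): chr19:22022155-22023149 (-1.89, adjusted p = 0.0127), chr19:23282617-23283445 (-1.33, adjusted p = 0.0033) and chr19:23441421-23443231 (-1.06, adjusted p = 0.0115) were lower with DMSO, and CER chr9:69817818-69821944 was higher (1.72, adjusted p = 0.00576). The lower copies lie in clusters A, B and C, which also fell with the drugs. The medians of the tested copies were -0.99, -0.96 and -0.71 in A, B and C, and -0.34 and -0.06 in D and E. The 3 lower calls were lost without either untreated replicate (adjusted p = 0.0665 to 0.207), and the higher one without untreated replicate 2 (1.18, adjusted p = 0.225). Untreated cells differ from the DMSO cells in the vehicle, and a medium change is given for the untreated cells alone. When the medium of the DMSO cells was changed is not given, so vehicle and medium change cannot be told apart.

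HSAT4 had the smallest adjusted p of the satellite names after Nutlin. The name stood at 12.4 and 9.25 CPM in DMSO cells and 25.8 and 30.2 CPM after Nutlin, with 21.4 CPM in the untreated sample (log2 fold change 1.36 with an SE of 0.16, adjusted p = 7.01e-10). The groups did not overlap, and the untreated sample lay between them. At this time alpha satellite rose too (1.18, adjusted p = 4.35e-15), while the simple repeats (CATTC)n and (GAATG)n, whose units resemble those of HSATII, were not called in any comparison.

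The HSAT4 counts came from 1 stretch of chromosome 19, at chr19:28207638-28262528. The copy chr19:28248503-28257858 held 39.1% of the name's counts with 5-FU and its controls and 33.9% with Nutlin and its controls, and had 38 and 32 counts in DMSO cells against 89 and 71 after Nutlin (log2 fold change 1.16 with an SE of 0.24, adjusted p = 0.00871). The copy chr19:28257870-28262528 had 26 and 23 against 58 and 55 (1.18, SE 0.29, adjusted p = 0.0228), a call lost with DESeq2 (adjusted p = 0.126) and without DMSO replicate 2 (0.057) or Nutlin replicate 2 (0.0982). The copy chr19:28224183-28232719 had 25 and 15 against 59 and 56 (1.497, SE 0.33, adjusted p = 0.0142). All 6 tested copies of the stretch were above 0, from 1.15 to 2.45. Of the other repeats tested within 20000 bases 7 of 13 were higher, with a median of 1.51.

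With 5-FU HSAT4 fell at 12 h and was not called at 6 or 24 h. At 12 h the name stood at 92.8 and 80.5 CPM in DMSO cells and 58.4 and 49.9 CPM after the drug (log2 fold change -0.68 with an SE of 0.24, adjusted p = 0.0466), with 7 of 7 copies of the stretch below 0. The 2 called were chr19:28232790-28236728 with 40 and 23 counts in DMSO cells against 12 and 13 (-1.69, adjusted p = 0.0142) and chr19:28224183-28232719 with 73 and 61 against 29 and 40 (-1.32, adjusted p = 0.0216). The first of these calls was lost without 3 of the 4 libraries (adjusted p = 0.0814 to 0.194) and the second without any 1 of them (0.0652 to 0.157). The other DMSO libraries stood at 51.0 to 64.7 CPM, and against them the 12 h value was -0.17 (adjusted p = 0.545). The call of the name was lost without any 1 of the 4 libraries (adjusted p = 0.0757 to 0.21). At 6 and 24 h the log2 fold changes were 0.00 and 0.25 (adjusted p = 0.998 and 0.526). Of the other repeats tested within 20000 bases of the stretch, 1 of 11 was called higher and 0 lower at 12 h. Their median was -0.40, against -1.32 for the HSAT4 copies.

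**Figure D4:**
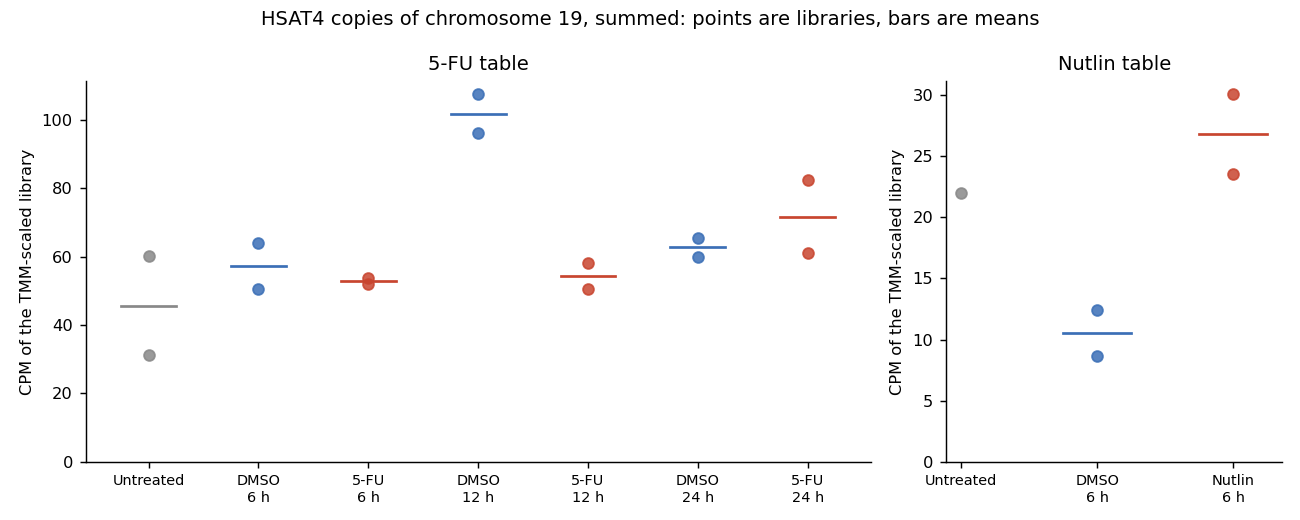
Summed level of the HSAT4 copies at chromosome 19 (y axis, CPM of the TMM-scaled library) by group (x axis), with points for libraries, bars for means and 1 panel for each table. Both Nutlin libraries lie above both DMSO libraries, and in the 5-FU table the DMSO 12 h libraries are the highest.

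The other HSAT names were low. HSATII, annotated at 249 kb, had 299 counts in all 14 libraries of the 5-FU table. Its levels were 0 and 2.56 CPM in DMSO cells and 5.89 and 4.01 CPM after 12 h of 5-FU (log2 fold change 1.94, adjusted p = 0.132), and 4.20 and 1.68 against 7.58 and 5.58 CPM at 24 h (1.16, adjusted p = 0.292). At both times the drug libraries lay above their controls, but untreated replicate 1 stood at 7.19 CPM and replicate 2 at 0.938, so a spread of that size also occurred without a drug. Its largest copy, chr10:42598547-42601361, held 12.4% of its counts there and 24.6% in the Nutlin table, in which 13.04% lay in the adjoining copy chr10:42597078-42598516 and 10.1% at chr10:42384182-42385776. HSAT5 had 299 counts, of which 27.1% lay in a copy of 174 bases (chr9:33598367-33598540), and was not called. Beside it a pair of short copies, chr9:33597912-33597980 and chr9:33598057-33598138, held 10.3% of its counts each in the Nutlin table. HSATI had 35 counts, 54.3% of them at chr6:143877533-143878005 and 25.7% at chr17:61479859-61479913. In the Nutlin table it had 7 counts, 1 of them at chr22:18883932-18884498.

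Among the gamma satellites, GSATII held 1669 counts of the 5-FU table, GSATX 39 and GSAT 17. The level of GSATII was 19.1 to 35.7 CPM in the 14 libraries and it was not called in any comparison (log2 fold change 0.03 and adjusted p = 0.936 at 12 h). Its counts lay mainly in 3 stretches of chromosome 9 that share 1 order of repeats: an SST1 copy of 1257 to 1259 bases, a GSATII copy of 1034 or 1035 bases, a TAR1 copy of 492 bases and a longer GSATII copy of 3742 to 4381 bases. These stretches span chr9:42251223-42257767, chr9:45435147-45442328 and chr9:70646088-70653266, and in the second the order runs the other way. Of the GSATII counts of the 5-FU table, 25.2% lay at chr9:70647361-70648394, 22.9% at chr9:70648890-70653266 and 15.4% at chr9:45435147-45439527, and in the Nutlin table chr9:45440023-45441057 was the largest with 30.6%.

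Counts of single GSATII copies varied more between libraries of 1 group than their sum did. The copy chr9:70647361-70648394 had 32 and 0 counts in the 2 untreated libraries, 5 and 72 after 6 h of 5-FU and 51 and 13 in DMSO cells at 24 h. The copy chr9:70648890-70653266 had 1 and 14, 70 and 48, and 60 and 13 counts in the same libraries. The median difference between the replicates of a group was 1.27 on the log2 scale for the GSATII copies tested (0.59 to 1.88) and 0.171 for the name. The largest such difference was 0.88 for the name (35.7 and 19.1 CPM after 24 h of 5-FU) and 1.11 to 4.19 for the copies. For BSR/Beta the median difference was 0.49 for the copies tested and 0.0716 for the name. How reads that match several copies were placed is not given in the sources used here.

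**Figure D5:**
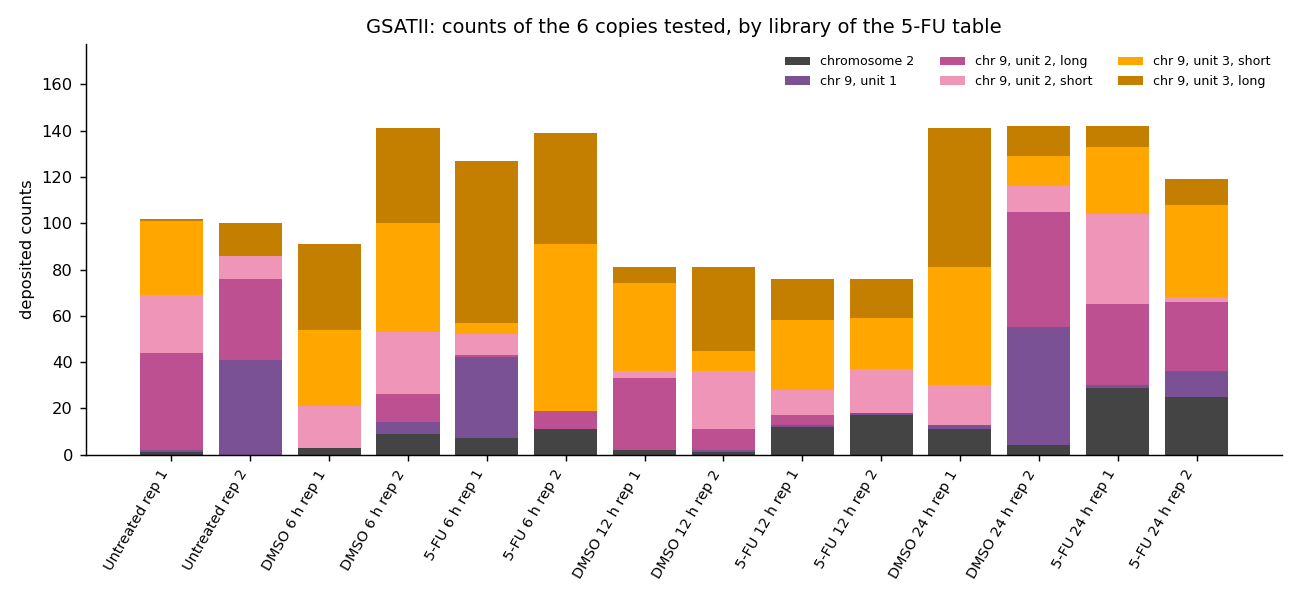
Deposited counts (y axis) of the 6 GSATII copies tested, stacked by copy (colours; units 1 to 3 are the stretches of chromosome 9 in their order), in each library of the 5-FU table (x axis). The height of the bars varies less between replicates than the share of the single colours does.

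One GSATII copy away from chromosome 9 was called. At chr2:132511066-132514594 the counts were 2 and 1 in DMSO cells and 12 and 17 after 12 h of 5-FU, a library-scaled ratio of 7.50 with a counting interval of 2.33 to 38.5 (adjusted p = 0.0392). The call was lost without any 1 of the 4 libraries (adjusted p = 0.0733 to 0.203), with DESeq2 (0.0552), with library size alone (0.07) and with no filter (0.2). At 24 h it had 11 and 4 against 29 and 25 counts, not called, though the groups did not overlap. GSATX had 84.6% of its counts at chr21:15443847-15446800, and 52.9% of the 17 counts of GSAT lay at chr4:6998288-6998504, the next copies being on chromosome 8. GSATX had a further 12.8% at chr3:173531793-173531957.

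SST1 rose at 12 h of 5-FU. It stood at 49.4 and 59.7 CPM in DMSO cells and 78.4 and 89.4 CPM after the drug (log2 fold change 0.62 with an SE of 0.19, adjusted p = 0.0208). At 6 h it stood at 57.3 and 64.5 against 87.3 and 87.1 CPM (0.52, SE 0.18, adjusted p = 0.301), and at 24 h at 61.6 and 57.3 against 99.8 and 65.0 CPM (0.46, adjusted p = 0.112). All 6 drug libraries lay above their own controls, with 24 h replicate 2 closest to them. After Nutlin the log2 fold change was 0.32 (adjusted p = 0.122).

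The copy chr9:70646088-70647346 held 60.005% of the SST1 counts of the 5-FU table and 59.0% of the Nutlin table, where chr9:42251223-42252481 held 14.8%. It had 65 and 83 counts in DMSO cells and 184 and 207 after 12 h of 5-FU (log2 fold change 1.03 with an SE of 0.29, adjusted p = 0.026), a call that was lost without any 1 of the 4 libraries (adjusted p = 0.0681 to 0.211) and with library size alone (0.71, adjusted p = 0.0834). Without this copy the log2 fold change of the name at 12 h was -0.19 (adjusted p = 0.556). The 12 h call of the name was lost without 5-FU replicate 1 (adjusted p = 0.0757), 5-FU replicate 2 (0.237) or DMSO replicate 1 (0.155). It was also lost with DESeq2 (0.33, adjusted p = 0.189), RLE factors (0.34, 0.167), TMM factors from the filtered copies (0.38, 0.13) and library size alone (0.05, 0.825).

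Untreated replicate 1 was counted both for the 5-FU table and for the Nutlin table, which shows how firmly counts are tied to single copies. Of 282 satellite copies with a count in either table, 84.8% had equal counts, and the sums were 2395 and 2423. MSR1, SATR1, SATR2 and LSAU had equal sums (188, 70, 43 and 32). SST1 had 215 and 218 counts in sum, but its copy at chr9:42251223-42252481 had 20 counts in the first and 111 in the second, and the copy at chr9:70646088-70647346 had 138 and 48. GSATII had 117 and 122 in sum, with 25 and 44 at chr9:45440023-45441057. For BSR/Beta the differences came to 0.933% of the counts.

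A further SST1 array on chromosome 19 (22 copies) was counted in bursts. In DMSO 6 h replicate 1 41 of its 48 counts lay at chr19:36776550-36778143, in replicate 2 all 33 at chr19:36794274-36795867, in 5-FU 6 h replicate 2 40 of 44 at chr19:36774017-36775612 and in 5-FU 24 h replicate 2 43 of 45 at chr19:36776550-36778143. DMSO 24 h replicate 2 had 22 of 30 at chr19:36799317-36800883. The other 9 libraries had 0 to 10 counts in the array. These libraries do not follow the groups, and no copy of the array was called.

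Of the repeats of acrocentric and subtelomeric regions, LSAU was called at 24 h of 5-FU. LSAU is a repeat that flanks satellite arrays near chromosome ends. It stood at 5.53 and 4.71 CPM in DMSO cells and 16.9 and 9.09 CPM after the drug, from 29 and 28 against 69 and 57 counts (log2 fold change 1.31 with an SE of 0.38, adjusted p = 0.038). At 12 h it stood at 5.97 and 3.51 against 10.3 and 11.2 CPM (1.17, adjusted p = 0.0568). In both comparisons the groups did not overlap. The 24 h call was lost with RLE factors (adjusted p = 0.0676), with TMM factors from the filtered copies (0.0557), with library size alone (0.134) and with the compared libraries alone (0.364). It was also lost without 5-FU replicate 1 (0.83, adjusted p = 0.121), DMSO replicate 1 (1.43, adjusted p = 0.135) or DMSO replicate 2 (1.19, adjusted p = 0.22).

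LSAU counts came from few copies. The copy chr9:68412971-68413271 held 67.0% and had 24 and 12 counts in DMSO cells and 42 and 51 after 24 h of 5-FU (log2 fold change 1.42, adjusted p = 0.108). The copy chr3:75719517-75719818 held 28.0% and had 0 and 16 against 26 and 2, so its groups overlapped. Without the largest copy the 24 h value of the name was 0.88 (adjusted p = 0.623).

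TAR1, the telomere-associated repeat, stood at 7.23 and 9.90 CPM in DMSO cells and 12.1 and 18.9 CPM after 12 h of 5-FU (log2 fold change 0.86, adjusted p = 0.07), and was not called in any comparison. Of its counts 19.7% lay in the copy of the chromosome 9 stretch at chr9:70648395-70648886, 15.3% in a copy of chromosome 8, which is the largest in the Nutlin table with 18.2%, and 12.3% at chr1:148927800-148928362. D20S16 stood at 1.72 and 3.03 against 3.67 and 8.93 CPM at 24 h (1.44, adjusted p = 0.119), and REP522 was not called. D20S16 had 11.1% of its counts at chr5:281708-282114. REP522 had 13.3% at chr21:15434251-15436091 and 12.8% at chr21:15432476-15432950, beside the main GSATX copy, and 10.6% at chr22:22651615-22652103. ACRO1, a repeat of the acrocentric chromosomes, had 70 counts, 27.1% of them at chr1:143279252-143280661 and 22.9% and 21.4% at chr19:44977984-44978274 and chr19:44978296-44978611. The last of these was its largest in the Nutlin table with 46.2%.

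SATR1 and SATR2, which are spread over 22 and 16 chromosomes in single copies and short groups, had 1.92 and 5.32 counts per kb in the 5-FU table. SATR2 rose after Nutlin, from 3.40 and 2.83 CPM to 5.65 and 6.41 CPM (log2 fold change 0.94 with an SE of 0.30, adjusted p = 0.0256). The call was lost without DMSO replicate 2 (0.82, adjusted p = 0.204), Nutlin replicate 1 (1.04, adjusted p = 0.185) or Nutlin replicate 2 (0.86, adjusted p = 0.178), and with library size alone (0.77, adjusted p = 0.0573). SATR1 was not called in any comparison. No copy of SATR1 held 10% of its counts, the largest being chr7:97578616-97580630 with 9.61% in the 5-FU table and chr3:112245892-112248901 with 9.80% in the Nutlin table. SATR2 had 10.3% of its counts at chr11:71616918-71619205, after its main copy on chromosome 7, and 11.2% both there and at chr7:97593719-97595337 in the Nutlin table.

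At 24 h of 5-FU 1 library stood apart in SATR2. The name stood at 17.9 and 18.3 CPM in DMSO cells and at 19.6 CPM in 5-FU replicate 1 and 57.1 CPM in replicate 2 (log2 fold change 1.11, adjusted p = 0.074). The copy chr7:97588991-97593707, with 34.4% of the name's counts, had 35 and 37 counts in DMSO cells and 41 and 136 after the drug. It lies beside SATR1 copies at chr7:97578616-97595337, where the sum was 11.0 and 11.2 against 17.1 and 34.5 CPM, with 4 of 4 tested copies above 0 and none called. Other repeats tested within 20000 bases of them moved the same way, 4 of 12 being called higher, with a median of 1.27 against 1.26 for the satellite copies. Replicate 2 was also above replicate 1 in CER (58.0 against 33.5 CPM) and SATR1 (30.4 against 15.9 CPM), among other names. It was below replicate 1 in SST1 (65.0 against 99.8 CPM) and GSATII (19.1 against 35.7 CPM), among others. In the same replicate 2 structural RNA took 33.8% of the counts, against 43.7% in replicate 1, and the part of this in these results was not tested.

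CER fell at 12 h of 5-FU. It stood at 59.7 and 56.5 CPM in DMSO cells and 30.7 and 27.5 CPM after the drug (log2 fold change -0.999 with an SE of 0.29, adjusted p = 0.0165), and the groups did not overlap. The copy chr9:69817818-69821944, with 21.9% of its counts, had 73 and 62 counts against 16 and 19 (-2.31, SE 0.36, adjusted p = 0.000288), and chr9:68995848-69000000 had 28 and 17 against 10 and 1 (-2.37, adjusted p = 0.0187). The second of these calls was lost without 5-FU replicate 2 (-1.51, adjusted p = 0.173) or DMSO replicate 1 (-1.98, adjusted p = 0.164). The call of the name was lost without any 1 of the 4 libraries (adjusted p = 0.0531 to 0.0975) and without its largest copy (-0.61, adjusted p = 0.221).

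The level of that CER copy varied between control groups as well. It was 6.26 and 2.39 CPM in untreated cells, 13.7 and 12.3, 27.1 and 23.7, and 8.24 and 10.5 CPM in DMSO cells at 6, 12 and 24 h, and 4.70 and 5.52 CPM after 12 h of 5-FU. The DMSO 12 h libraries were the highest of all 14. Set against the other 4 DMSO libraries, the 12 h value of the copy was -1.11 (adjusted p = 0.0253). Further CER copies were chr9:66858042-66863340 with 16.8% of the counts and chr9:69000026-69004778 with 10.4%, and in the Nutlin table the first of these was the largest with 19.7%, followed by chr9:69817818-69821944 with 14.5% and a copy of 39 bases at chr5:92954798-92954836 with 13.1%. At 24 h another CER copy, chr21:9935221-9939398, had 20 and 66 counts after 5-FU against 14 and 9 in DMSO cells (1.85, adjusted p = 0.0434). This call was lost with DESeq2 (adjusted p = 0.0549), with library size alone (0.0722) and without 5-FU replicate 2 (1.15, adjusted p = 0.338), DMSO replicate 1 (2.25, 0.133) or DMSO replicate 2 (1.48, 0.338), and it was kept in 5 of 12 alternatives.

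MSR1, a minisatellite that lies mainly on chromosome 19, stood at 30.5 and 32.6 CPM in DMSO cells and 48.6 and 63.9 CPM after 12 h of 5-FU (log2 fold change 0.84 with an SE of 0.17, adjusted p = 0.00216). Its largest copy, chr19:55880347-55880571 with 20.2% of its counts, had 16 and 13 against 30 and 57 (1.21, adjusted p = 0.0444). The call of this copy was kept in 3 of 13 alternatives, and its value was 0.69 (adjusted p = 0.379) without 5-FU replicate 2. The other 4 DMSO libraries of the table stood at 41.6 to 67.7 CPM, and against them the 12 h value of the name was 0.05 (adjusted p = 0.818). The call of the name was lost without 5-FU replicate 2 (0.52, adjusted p = 0.108) and with library size alone (0.27, adjusted p = 0.243). After Nutlin MSR1 stood at 17.3 and 18.7 CPM against 19.2 and 16.5 CPM (0.01, adjusted p = 0.978). In the Nutlin table its copies chr19:42874497-42874807 and chr19:56160086-56160183 held 13.1% and 11.2% of its counts, beside 14.3% in the largest. SAR is listed in 1 copy with 9 counts.

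The calls at 12 h depended on the control libraries to different degrees. Against the DMSO libraries of 6 and 24 h the 12 h value was 0.06 for BSR/Beta (adjusted p = 0.613), 0.05 for MSR1 (0.818) and -0.17 for HSAT4 (0.545). It was -0.92 for CER (0.0113) and 0.48 for SST1 (0.0243). LSAU, not called at 12 h against its own DMSO libraries, had 1.08 (0.0234). The 3 copies of cluster D stayed higher, at 3.51, 3.46 and 2.99 (adjusted p = 3.26e-07, 6.02e-05 and 0.000455). In these bulk samples fewer cells that make an RNA and less of that RNA per cell cannot be told apart.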

How the data were processed

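Raw counts per annotated repeat copy are the values the authors deposited, in 2 tables, one for the 5-FU experiment (14 libraries) and one for Nutlin. Per the submitters' processing notes, Trimmomatic 0.32, cutadapt 1.10, Bowtie2, edgeR, DESeq2 and the hg19 build were used. The repeat annotation, the counting program and the handling of reads that match several copies are not given in the sources used here. Positions are 1-based on hg19, and no copy was placed in a gene.

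The satellites and lists were chosen with earlier results of these data known. Each table was fitted once, with a mean per group, with edgeR 4.0.16 and limma 3.58.1 in R 4.3.3 (glmQLFit and glmQLFTest) after filterByExpr (minimum count 10, minimum total 15). This left 63602 copies and 1078 names in the 5-FU table and 24565 and 1039 in the Nutlin table. TMM factors came from the filtered copies for copies and clusters and from all copies for names, so CPM of the 2 kinds are on different scales. The Benjamini-Hochberg threshold was 0.05 over all features. SE is the standard error of the log2 fold change. Counting intervals (95%) cover counting error only. Named were the largest copy of each name, up to 2 further copies with at least 10% of its counts each, and in each drug comparison up to 5 called copies in each direction with the smallest p.

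The 2 untreated columns of the Nutlin table differ in 0 copies and were used as 1 sample. DMSO and untreated cells were compared in the 5-FU table alone. Alternatives were RLE factors, library size alone, DESeq2 1.42.0, no filter, no structural RNA, the compared libraries alone, the replicate number as a block, each library left out, other DMSO libraries at 12 h, and names without their largest copy. The fit was tested on simulated data. Tables and plots were made with the R package data.table (version 1.17.8), Python 3.11.15, numpy 2.4.6, pandas 2.3.3, scipy 1.17.1 and matplotlib 3.10.9.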

Additional observations from a re-analysis of the deposited data

Results flagged for a closer look

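The effect of 5-FU at 24 h differed from its effect at 6 h, by a test of the difference itself, at 2 beta satellite copies of cluster B. For chr19:23284077-23284428 the difference of the log2 fold changes was -2.68 (edgeR's quasi-likelihood test, adjusted p = 0.0362), and for chr19:23282617-23283445 it was -2.61 (adjusted p = 0.0106). Over 16 alternatives the first call was lost in 7, with values of -3.18 to -1.95, and the second in 4, with adjusted p of 0.0537 to 0.0797.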

How the results depend on the processing

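For the 53 called names and copies, 507 of 690 alternative values kept direction and call, and 11 kept the call under every alternative. Those reversed were BSR/Beta at 12 h with library size alone (-0.14) and SST1 at 12 h without its most abundant copy (-0.19). The cause was not tested where no other is given. For names not called, 20 of 1045 alternative values were called, each in the direction of the value reported. Called names at 12 h (5) were 3 with DESeq2, RLE factors, TMM factors from the filtered copies or the other DMSO libraries, and 2 with library size alone. At 24 h the 1 called name became 0 with DESeq2 (which gave it no adjusted p), RLE factors, TMM factors from the filtered copies, library size alone, the compared libraries alone or without the most abundant copy. At 6 h the compared libraries alone gave 1 name (SST1), and for DMSO against untreated they and DESeq2 gave 4 in place of 1.

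Called copies after Nutlin (9) were 2 with DESeq2 and 5 with no filter. At 6 h of 5-FU (0) they were 1 with DESeq2 or the compared libraries alone and 3 with no filter. At 12 h (13) they were 8 with no filter and 7 with the compared libraries alone, and at 24 h (15) 9 and 8. For the 24 h against the 6 h effect (2) they were 4 with library size alone or no filter and 0 with the compared libraries alone. For DMSO against untreated (4) they were 7 with no filter, where more copies were tested. Leaving out 1 library gave 6 to 12 copies after Nutlin, 0 to 0 at 6 h, 2 to 9 at 12 h, 7 to 13 at 24 h, 0 to 5 for the 24 h against the 6 h effect and 0 to 5 for DMSO against untreated. For names it gave 1 to 4, 0 to 0, 0 to 3, 0 to 3, 0 to 1 and 1 to 2. The TMM alternatives were chosen after seeing the data.

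Differences between replicates 1 and 2 of each drug group were correlated with those of its DMSO group over all copies tested (24565 or 63602). Pearson's r was -0.0075, -0.0029, -0.016 and 0.139 for Nutlin and 6, 12 and 24 h of 5-FU. With 1 such difference per group, these values cannot decide whether replicate numbers pair the samples. With the replicate number as a block 3 names and 10 copies were called after Nutlin, 0 and 0 at 6 h, 5 and 12 at 12 h, 1 and 13 at 24 h, 0 and 2 for the 24 h against the 6 h effect and 1 and 4 for DMSO against untreated. Depth limits the 5 names that were not tested, which had 9 to 70 counts over 14 libraries.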
